A study of Mus musculus with 4 samples.

Results

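The unfolded protein and amino acid stress genes described here are 32 genes, taken as a named list, and every probe set annotated to them was read on all 4 arrays of the series. They fall into 5 sensors and transcription factors, 14 chaperones and folding enzymes of the endoplasmic reticulum (ER), 3 genes of ER-associated degradation and 10 targets of the transcription factor Atf4. All 32 had a probe set, among 18193 genes with one, and together they held 81 probe sets of the 45101 on the array. The series has 1 array of each of 4 cell types. iNSC_14F and iNSC_13F are induced neural stem cells, made by lineage reprogramming with 14 and with 13 factors. The others are NSC, neural stem cells derived from primary tissue, and MEF, mouse embryonic fibroblasts. The names of the factors, the cells that were reprogrammed, the strain, the age and the number of clones or cultures behind each sample were not stated in the labels. NSC and the induced cells grew in serum-free N2 medium with EGF, bFGF and laminin. The labels do not state the medium of the fibroblasts, so cell type and culture cannot be told apart in any comparison with MEF. With 1 array per group the spread between replicates is unknown, no test was possible, and a difference below is a difference between arrays.

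The unfolded protein response is the program by which a cell adjusts the folding capacity of its ER. Ern1, Eif2ak3 and Atf6 encode its sensors in the ER membrane: Ern1 splices the Xbp1 transcript, Eif2ak3 phosphorylates the translation factor eIF2 alpha and so favours translation of Atf4, and Atf6 is cut to release a transcription factor. Xbp1 and Atf6 act on chaperone and degradation genes, whereas Atf4 acts on genes of amino acid supply and of the later stress response and also answers amino acid shortage through other eIF2 alpha kinases. The array measured RNA, so sensor activity, Xbp1 splicing and Atf4 protein were not measured here.

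Array facts that touch these genes were as follows. A floor of 103.91, taken from chemosensory receptor probe sets, marked signals treated as not above background, and 9854 to 10561 genes per array lay above it. Of the 32 genes, 31 were above the floor on iNSC_14F, iNSC_13F and NSC and 32 on MEF. The 10 fibroblast markers had a summed signal of 4223 on iNSC_14F, 2962 on iNSC_13F, 463 on NSC and 208417 on MEF, with 4 of them above the floor on iNSC_14F, 5 on iNSC_13F, 1 on NSC and 9 on MEF, and with Col1a1, Pdgfrb and Postn below it on all arrays but MEF. The 8 neural stem cell markers summed to 49693 on iNSC_14F, 42750 on iNSC_13F, 57393 on NSC and 1471 on MEF, with Sox1 and Prom1 below the floor on both induced arrays. None of 6 hepatocyte markers and none of 4 pluripotency markers was above the floor on any array, and of 5 B lymphocyte markers Ighm alone was. The hybridization controls, bacterial and phage transcripts spiked into each sample, were 1.86 times as bright on iNSC_14F, 2.11 times on iNSC_13F and 1.85 times on MEF as on NSC. Scaling the arrays to those controls moved the median log2 difference of all genes to -0.48 against 0.33 as deposited for iNSC_14F over NSC, to -0.65 against 0.30 for iNSC_13F over NSC, and to 0.80 against -0.01 for NSC over MEF. Differences that involve NSC are given on the deposited scale unless stated otherwise, and between those 2 scalings the sign turned in 13 of 31 genes for iNSC_14F over NSC, 16 of 31 for iNSC_13F over NSC and 12 of 32 for NSC over MEF. The ratio of the 3′ to the 5′ actin probe sets was 1.65 on iNSC_14F, 1.53 on iNSC_13F, 1.35 on NSC and 1.42 on MEF, and that of the Gapdh probe sets was 0.779 on iNSC_14F, 0.806 on iNSC_13F, 0.723 on NSC and 0.775 on MEF. The part of RNA quality, fibroblast content and scaling in the differences below was not tested, and in such bulk RNA fewer cells of a type and less RNA per cell cannot be told apart.

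Against MEF the stress genes stood low on the other 3 arrays. On iNSC_14F, 16 of 32 were at least 2-fold lower than on MEF and 0 were at least 2-fold higher, against 19.0% of all measured genes lower and 18.0% higher, and the median log2 difference was -0.89 against 0.10 for all genes. On iNSC_13F, 15 of 32 were lower and 0 higher, against 20.9% and 15.6% of all genes, with a median of -0.82 against 0.09. On NSC, 12 of 32 were lower and 0 higher, against 17.5% and 19.9%, with a median of -0.66 against -0.01. Under the hybridization scaling the NSC count became 7 lower and 2 higher (Eif2ak3 and Canx), against 9.08% of all genes lower and 42.8% higher, and the median of 0.23 stood 0.57 below that of all genes. These 3 comparisons share the MEF array. MEF held the highest signal of the 4 arrays for 19 of the 32 genes (59.4%), and the same was so for 25.0% of 12320 genes. With the hybridization controls it did so for 13 of the 32, against 19.7% of all genes.

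**Figure D1:**
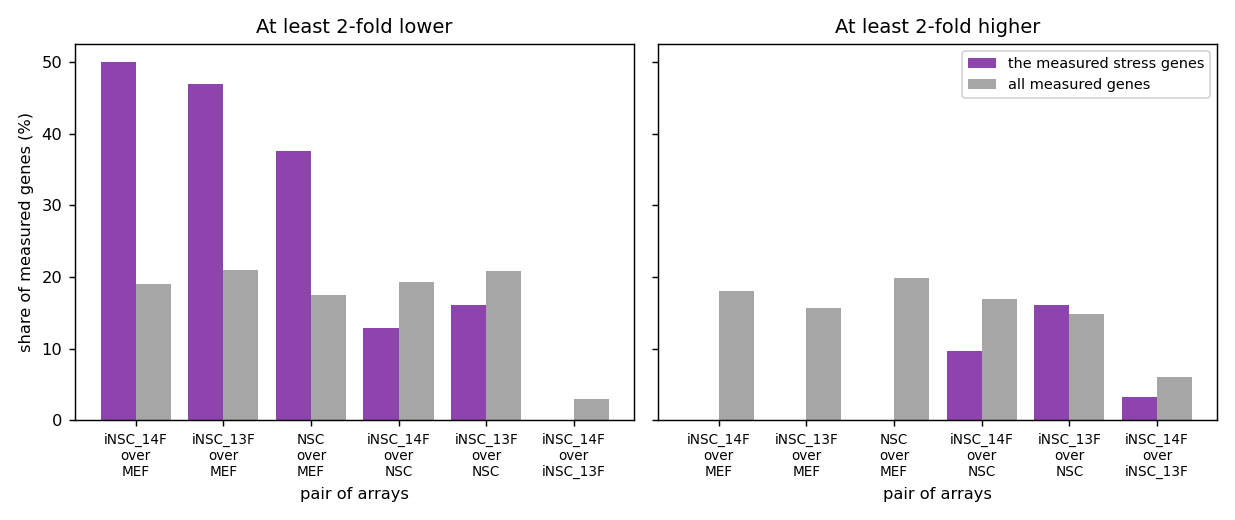
Share of measured genes (%) at least 2-fold lower (left) or higher (right) in each pair of arrays, for the stress genes (purple) and for all measured genes (grey), 1 array per group. Against MEF, 50%, 46.9% and 37.5% of the stress genes were lower on iNSC_14F, iNSC_13F and NSC, and none was higher.

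Against NSC the picture was mixed. On iNSC_14F, 4 of 31 measured genes were at least 2-fold lower than on NSC and 3 were higher, against 19.3% of all genes lower and 16.9% higher, and the split was 10 lower and 0 higher of 32 under the hybridization scaling, against 32.8% and 2.43% of all genes. On iNSC_13F, 5 of 31 were lower and 5 higher, against 20.8% and 14.8% of all genes, and 13 lower and 0 higher of 32 under that scaling, against 38.1% and 1.29%. The medians were 0.41 on iNSC_14F and 0.39 on iNSC_13F, which is 0.08 and 0.10 above the medians of all genes. Both comparisons share the NSC array. The shares, 12.9% lower and 9.68% higher on iNSC_14F and 16.1% each way on iNSC_13F, lay near or below those of all genes on the deposited scale.

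**Figure D2:**
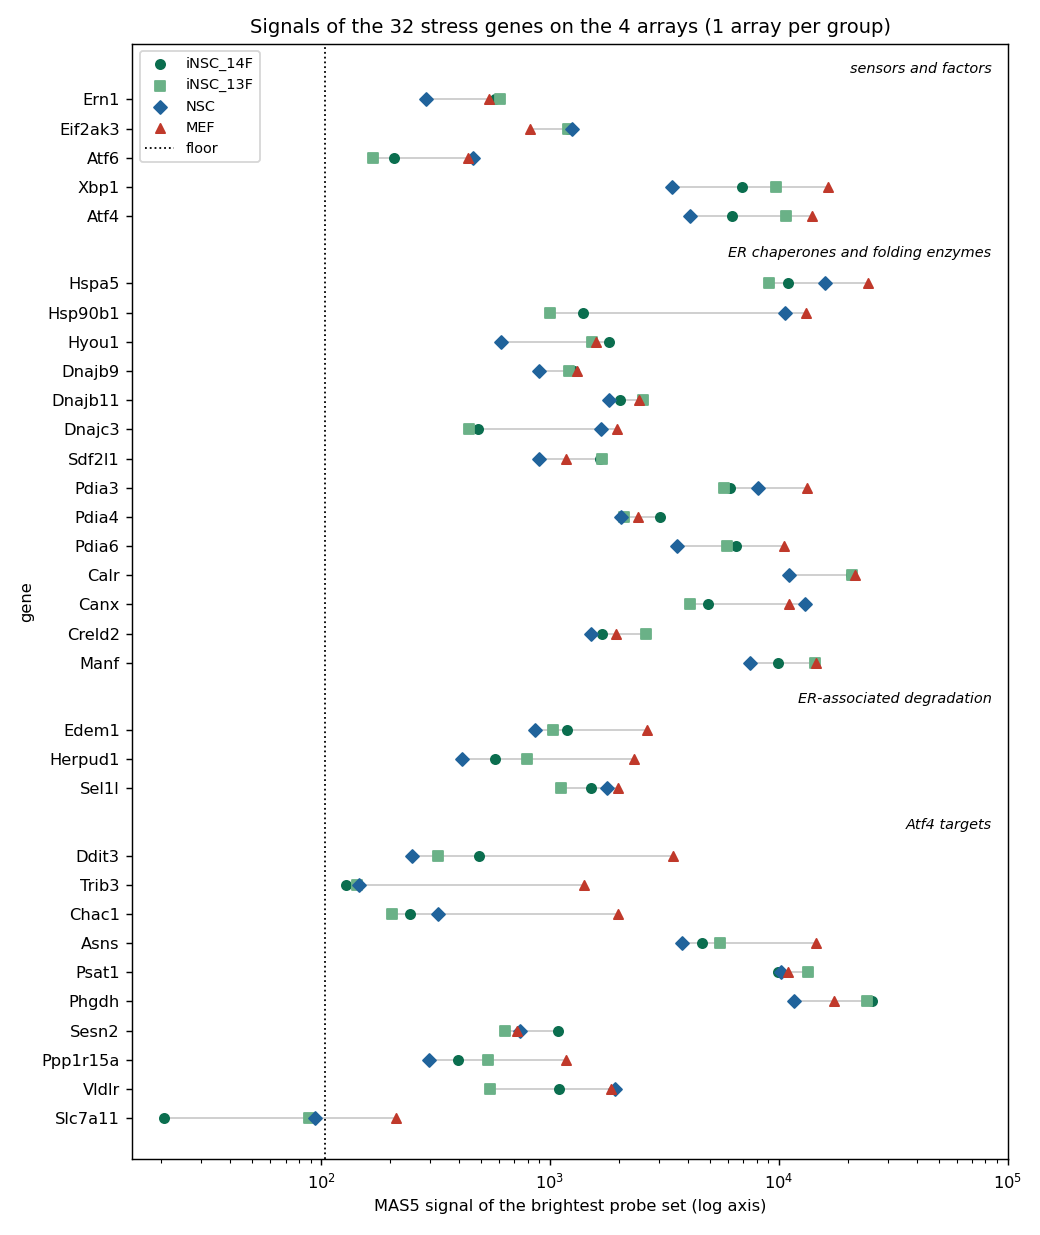
Signal of the brightest probe set of each of the 32 genes (log axis) on iNSC_14F, iNSC_13F, NSC and MEF, grouped by role, with the floor of 103.91 as a dotted line. Positions may be compared within a row but not between rows, since probe sets differ in brightness. The row of Hsp90b1 shows iNSC_14F and iNSC_13F at 1397 and 1000, apart from NSC and MEF at 10652 and 13146, and the rows of Ddit3, Trib3 and Chac1 show MEF apart from the other 3 arrays.

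Among the sensors, the signals went in different directions. Ern1 had a signal of 573 on iNSC_14F, 603 on iNSC_13F, 288 on NSC and 540 on MEF. The induced cells and MEF thus lay within 1.12-fold of each other, and NSC was lowest on the deposited scale, but iNSC_13F over NSC was 1.07 as deposited and -0.01 with the hybridization controls. Eif2ak3, the sensor kinase that phosphorylates eIF2 alpha, read 1198, 1202 and 1249 on iNSC_14F, iNSC_13F and NSC, and 821 on MEF. It was the only one of the 5 with its lowest signal on MEF, and the log2 difference from MEF was 0.55 on iNSC_14F and 0.55 on iNSC_13F. Atf6 read 209 on iNSC_14F and 168 on iNSC_13F, against 460 on NSC and 440 on MEF. Both induced arrays were thus 2.10- to 2.73-fold lower than both reference cell types. A second Atf6 probe set, with signals of 135, 154, 198 and 403 on iNSC_14F, iNSC_13F, NSC and MEF, showed the same direction with a smaller gap to NSC.

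The transcripts of the 2 transcription factors downstream, Xbp1 and Atf4, had the same order of arrays on the deposited scale. Xbp1 had a signal of 6921 on iNSC_14F and 9702 on iNSC_13F, against 3418 on NSC and 16420 on MEF. The induced cells lay between NSC and MEF, and all 4 Xbp1 probe sets gave that order. Over MEF the log2 differences were -1.25 on iNSC_14F, -0.76 on iNSC_13F and -2.26 on NSC. Over NSC they were 1.02 on iNSC_14F and 1.51 on iNSC_13F as deposited, and 0.12 and 0.43 on the same arrays with the hybridization controls. Atf4 read 6261 on iNSC_14F and 10753 on iNSC_13F, against 4093 on NSC and 13982 on MEF. Its difference from MEF was -1.16 on iNSC_14F and -0.38 on iNSC_13F. iNSC_14F over NSC was 0.61 as deposited and -0.29 under the other scaling, so its direction is not settled, while iNSC_13F over NSC was 1.39 and 0.32.

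**Figure D3:**
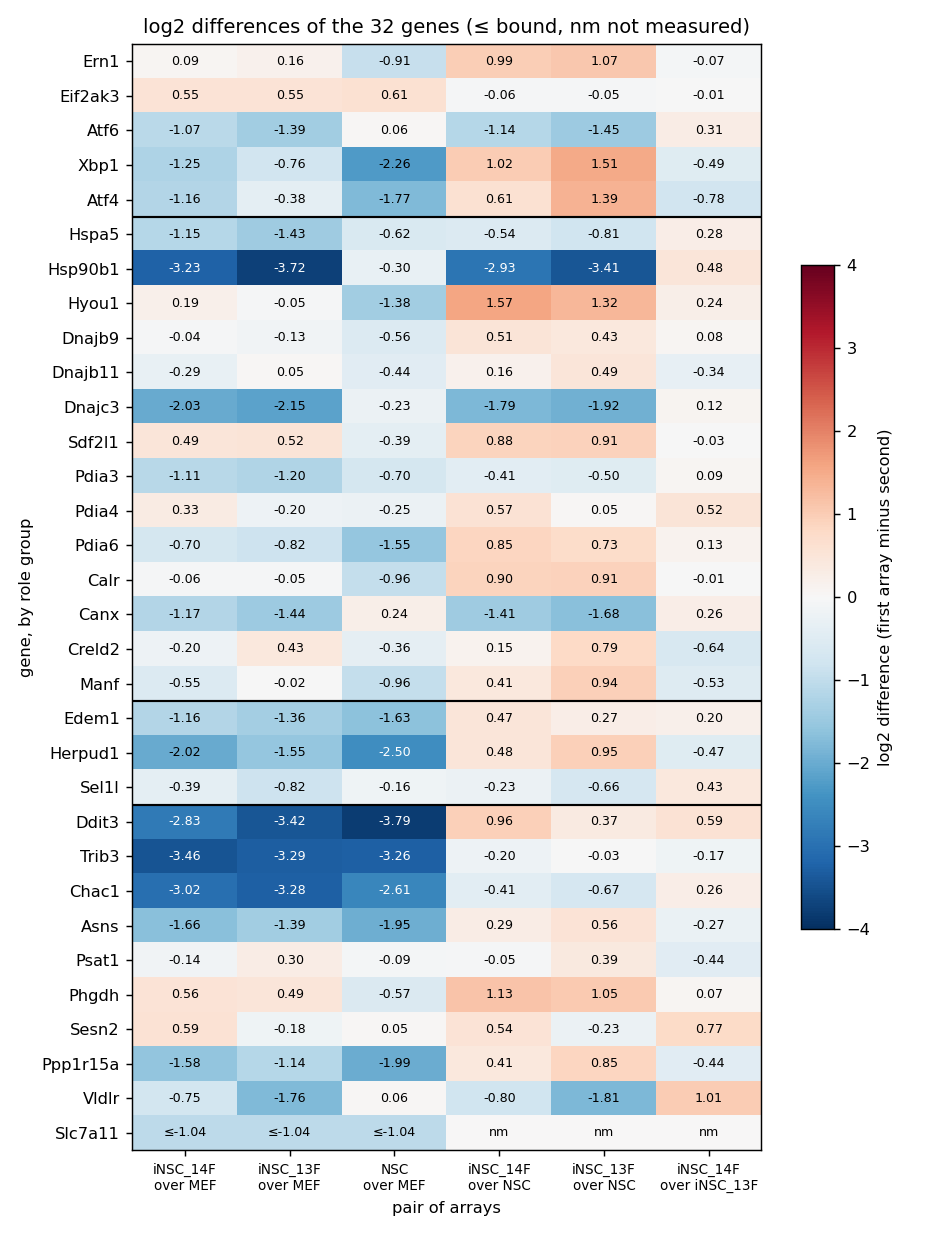
Log2 difference of each of the 32 genes in the 6 pairs of arrays on the deposited scale (first array over second; blue lower, red higher), with black lines between the role groups, ≤ for a bound and nm for a pair with no array above the floor. Most Atf4 targets are blue in the 3 columns over MEF. Atf6, Hsp90b1, Dnajc3 and Canx are at least 2-fold lower in the columns of both induced cells over MEF and over NSC.

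Among the 14 chaperones and folding enzymes, 3 stood well below both NSC and MEF in the induced cells, and most of the rest differed little. Hsp90b1, which encodes the ER member of the Hsp90 family, had a signal of 1397 on iNSC_14F and 1000 on iNSC_13F, against 10652 on NSC and 13146 on MEF. It was 7.62-fold lower than NSC and 9.41-fold lower than MEF on iNSC_14F, and 10.6-fold and 13.1-fold lower on iNSC_13F. Its second probe set read 656 on iNSC_14F and 333 on iNSC_13F, against 5933 on NSC and 5691 on MEF, so both probe sets set the induced cells apart. Dnajc3 encodes a cochaperone of Hspa5 that was also described as an inhibitor of eIF2 alpha kinases. Its signal was 483 on iNSC_14F and 443 on iNSC_13F, against 1672 on NSC and 1968 on MEF, or 3.46- to 4.44-fold lower in the induced cells. All 5 of its probe sets were lower on both induced arrays than on NSC. Canx, the membrane lectin calnexin that holds newly made glycoproteins in the ER, read 4893 on iNSC_14F and 4078 on iNSC_13F, against 13034 on NSC and 11044 on MEF. It was 2.26- to 3.20-fold lower in the induced cells, and all 3 of its probe sets gave that direction against both reference cell types.

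Hspa5, the ER Hsp70 chaperone also called BiP, was lowest in the induced cells on both scalings in its brightest probe set. It had a signal of 11007 on iNSC_14F and 9083 on iNSC_13F, against 15975 on NSC and 24502 on MEF. The induced cells were 2.23- and 2.70-fold lower than MEF. Over NSC the log2 differences were -0.54 and -0.81 as deposited and -1.44 and -1.89 with the hybridization controls. NSC over MEF was -0.62 as deposited and 0.27 with those controls, so the order of NSC and MEF is not settled. Of the 3 Hspa5 probe sets, the dimmest read 2539, 3436, 2699 and 2024 on iNSC_14F, iNSC_13F, NSC and MEF. It went another way, with MEF lowest and iNSC_13F highest. The remaining Hspa5 probe set read 4417, 4714, 8149 and 12154 on the arrays in that order, with the induced cells lowest. Pdia3, the disulfide isomerase that works with calnexin and calreticulin, read 6140 on iNSC_14F, 5765 on iNSC_13F, 8139 on NSC and 13256 on MEF. Both induced arrays were again over 2-fold below MEF, at -1.11 and -1.20, and less than 2-fold below NSC on the deposited scale. A dimmer Pdia3 probe set read 121, 127, 88.4 and 266 on iNSC_14F, iNSC_13F, NSC and MEF. It was also highest on MEF, but its lowest signal was on NSC, below the floor.

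Calr, the soluble lectin calreticulin that shares the glycoprotein cycle with calnexin, did not follow Canx. It had a signal of 20676 on iNSC_14F and 20850 on iNSC_13F, against 11060 on NSC and 21561 on MEF. The induced cells were within 1.04-fold of MEF, and the 3 Calr probe sets had the same order of arrays. The log2 difference over NSC was 0.90 and 0.91 as deposited, and 0.00 and -0.16 with the hybridization controls, so a gap to NSC depends on the scaling. Pdia6, a disulfide isomerase that also attenuates Ern1 signalling, read 6496 and 5956 on iNSC_14F and iNSC_13F, 3603 on NSC and 10538 on MEF. NSC was 2.92-fold below MEF and the induced cells lay between them as deposited, whereas their differences from NSC turned to -0.05 and -0.35 under the other scaling. Hyou1, a large Hsp70-like exchange factor for Hspa5, read 1806 on iNSC_14F and 1526 on iNSC_13F, against 610 on NSC and 1584 on MEF. The induced cells thus stood at the level of MEF, with 1.57 and 1.32 over NSC as deposited and 0.67 and 0.25 with the hybridization controls. A second Hyou1 probe set read 292, 539, 192 and 379 on iNSC_14F, iNSC_13F, NSC and MEF. In it the induced arrays were -0.37 and 0.51 over MEF, and iNSC_14F over NSC was 0.61.

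The other 6 folding genes were within 2-fold between any pair of arrays as deposited. Dnajb9 and Dnajb11, J-domain cochaperones of Hspa5, had signals of 1281, 1210, 898 and 1320 and of 2019, 2547, 1811 and 2463 on iNSC_14F, iNSC_13F, NSC and MEF. Sdf2l1, part of a complex with Hspa5 and Dnajb11, read 1650, 1684, 898 and 1178 on the arrays in that order. In it the induced arrays were the highest, but the differences over NSC of 0.88 and 0.91 became -0.02 and -0.17 with the hybridization controls. Pdia4, a disulfide isomerase, had 3030 on iNSC_14F, 2107 on iNSC_13F, 2037 on NSC and 2418 on MEF. Creld2, an ER-resident protein that ER stress induces, had 1691 on iNSC_14F, 2632 on iNSC_13F, 1520 on NSC and 1948 on MEF, with iNSC_13F highest. Manf, a small ER protein that can be secreted and protects neurons, had 9961 on iNSC_14F, 14371 on iNSC_13F, 7501 on NSC and 14564 on MEF. For iNSC_13F over NSC, Creld2 was 0.79 and Manf 0.94 as deposited, and -0.28 and -0.14 with the hybridization controls. Dnajb9 and Dnajb11 likewise turned to -0.64 and -0.58 in that pair. As a group the 14 had medians of -0.42 on iNSC_14F, -0.16 on iNSC_13F and -0.50 on NSC over MEF. Those of all genes were 0.10, 0.09 and -0.01. On those arrays 5, 5 and 2 of the 14 were at least 2-fold lower than MEF. These are 35.7%, 35.7% and 14.3%, against 19.0%, 20.9% and 17.5% of all genes, so the share on NSC lay below that of all genes. The NSC median was 0.39 with the hybridization controls, where that of all genes was 0.80.

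Promoters of chaperone genes are shown because the same element was found in some genes that stood apart and in some that did not. The ER stress response element, ERSE, is known to bind Atf6 and Xbp1 together with the factor NF-Y, and it was searched on both strands as CCAAT, 9 bases of any kind, and CCACG, in the 250 bases before and 50 bases after each start in RefSeq (GRCm38.p6). It was found in 7 of the 12 chaperone genes that had a promoter in the table, in 0 of the 4 sensors and factors, 3 degradation genes and 10 Atf4 targets that had one, and in 0.119% of all 32851 promoters. Capitals mark the ERSE, read on the strand of the gene, so that an element on the other strand appears reversed. The first 4 belong to genes whose brightest probe set was lowest on the induced arrays.
Hsp90b1, chr10:86705513-86705676, minus strand: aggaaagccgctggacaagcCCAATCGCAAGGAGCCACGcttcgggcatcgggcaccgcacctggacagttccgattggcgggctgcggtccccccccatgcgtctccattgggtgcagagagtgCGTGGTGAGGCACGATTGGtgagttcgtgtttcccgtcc
Dnajc3, chr14:118937807-118937865, plus strand: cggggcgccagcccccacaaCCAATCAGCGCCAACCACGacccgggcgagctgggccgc
Canx, chr11:50325780-50325838, minus strand: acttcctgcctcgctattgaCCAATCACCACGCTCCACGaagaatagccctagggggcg
Hspa5, chr2:34772005-34772063, plus strand: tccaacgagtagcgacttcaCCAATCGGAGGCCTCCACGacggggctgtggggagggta
The next 3 belong to genes that were not lowest on both induced arrays.
Calr, chr8:84847055-84847113, minus strand: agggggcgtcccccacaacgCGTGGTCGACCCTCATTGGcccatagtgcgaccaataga
Pdia6, chr12:17266471-17266529, plus strand: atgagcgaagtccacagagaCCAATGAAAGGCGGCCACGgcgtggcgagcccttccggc
Creld2, chr15:88819500-88819558, plus strand: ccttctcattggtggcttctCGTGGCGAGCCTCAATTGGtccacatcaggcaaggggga
Hsp90b1 held 2 such elements, 1 on each strand, and the other 6 genes held 1 each. No ERSE was found in the promoters of Dnajb9, Dnajb11, Sdf2l1, Pdia3 and Pdia4. Among these, the brightest probe set of Pdia3 was also lowest on the induced arrays. Set beside the signals, Hsp90b1 was 13.1-fold and Canx 2.71-fold lower on iNSC_13F than on MEF, and Calr was within 1.03-fold. A match describes these letters and does not show that a factor bound there. The shorter XBP1 element TGACGTGG was in 0 of the 31 promoters of these genes and in 0.676% of all.

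**Figure D4:**
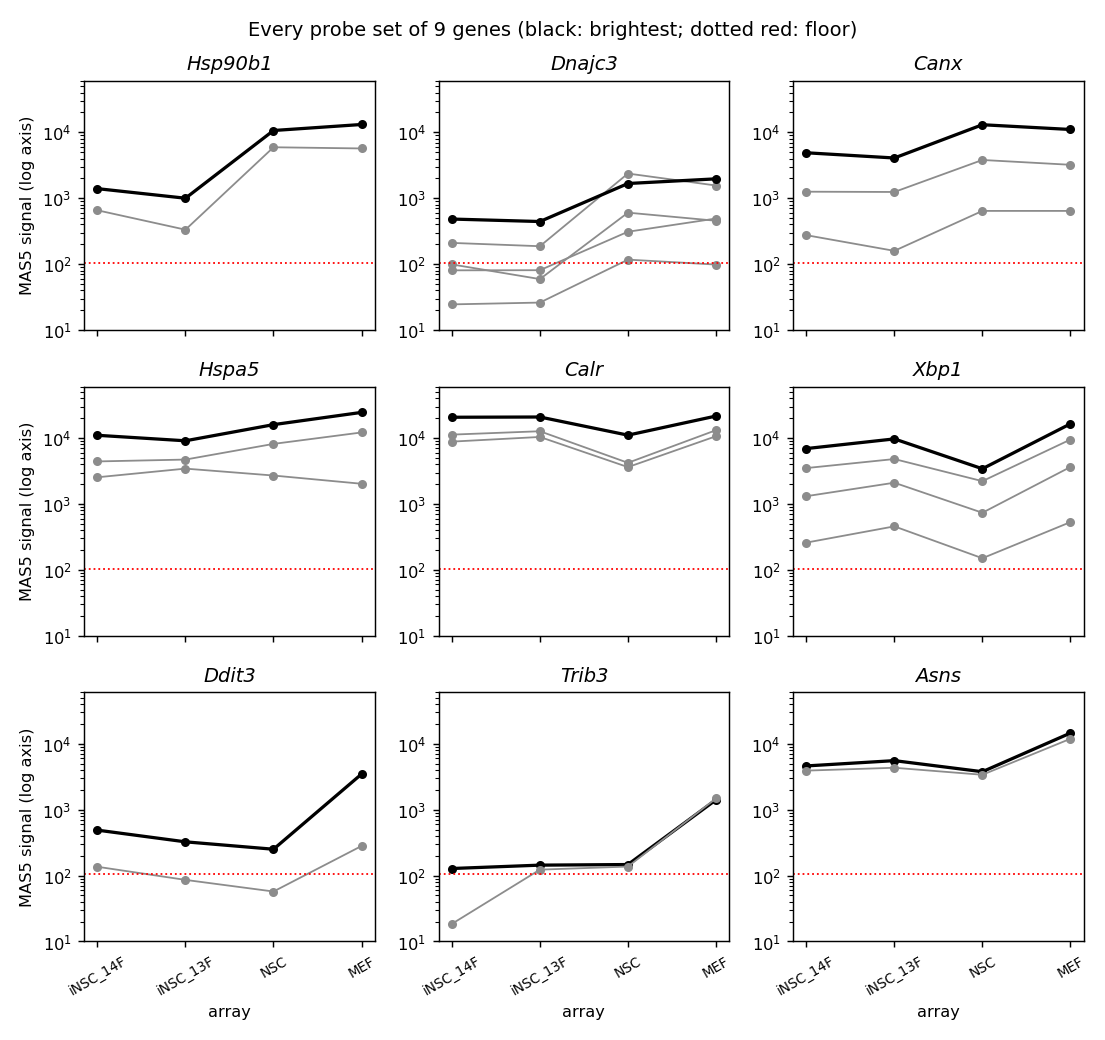
Signal (log axis) of every probe set of 9 genes on the 4 arrays, with the brightest probe set in black and the floor as a dotted red line. Both Hsp90b1 probe sets, all 5 of Dnajc3 and all 3 of Canx lie lower on iNSC_14F and iNSC_13F than on NSC, the 3 of Calr and the 4 of Xbp1 have their lowest point on NSC, and both probe sets of Ddit3, Trib3 and Asns are highest on MEF.

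Of the 3 genes of ER-associated degradation, by which misfolded proteins leave the ER for the proteasome, Herpud1 and Edem1 were highest on MEF on both scalings. Herpud1, a membrane protein of the export complex, had a signal of 576 on iNSC_14F, 798 on iNSC_13F, 413 on NSC and 2341 on MEF. The other 3 arrays were 4.06-, 2.93- and 5.67-fold below MEF, and both Herpud1 probe sets gave that direction. Edem1, which directs misfolded glycoproteins to degradation, read 1190, 1033 and 859 on iNSC_14F, iNSC_13F and NSC, against 2651 on MEF. Its log2 differences from MEF were -1.16, -1.36 and -1.63, and the NSC value was -0.74 with the hybridization controls. Sel1l, the adaptor of the Hrd1 ubiquitin ligase, read 1510, 1120, 1775 and 1979 on iNSC_14F, iNSC_13F, NSC and MEF, less than 2-fold apart on any pair of arrays as deposited. With the hybridization controls Sel1l was -1.13 on iNSC_14F and -1.74 on iNSC_13F over NSC, and NSC over MEF was 0.73 against -0.16 as deposited. Its other probe sets above the floor were not alike. The brightest of them read 502, 479, 362 and 1011 on the arrays in the same order. Its log2 differences from MEF were -1.01, -1.08 and -1.48 on iNSC_14F, iNSC_13F and NSC. Another read 96.8, 166, 127 and 245, also highest on MEF, and another read 259, 141, 258 and 230, which was not. Against NSC, as deposited, no gene of the 3 was 2-fold apart on either induced array. Herpud1 is the degradation gene with promoter matches. Its window is shown for ERSE-II (ATTGG, 1 base, CCACG), an element in 0.0365% of all promoters that was also found after the start of Dnajb11.
Herpud1, chr8:94386357-94386407, plus strand: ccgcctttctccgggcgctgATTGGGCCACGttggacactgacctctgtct

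Most Atf4 targets were lower on iNSC_14F, iNSC_13F and NSC than on MEF. Of 10, 6 were at least 2-fold lower than MEF on iNSC_14F, 7 on iNSC_13F and 6 on NSC, against 19.0%, 20.9% and 17.5% of all genes. The medians were -1.31, -1.26 and -1.49 on those arrays, and those of all genes 0.10, 0.09 and -0.01. Ddit3, the factor CHOP of prolonged stress, had a signal of 489 on iNSC_14F, 325 on iNSC_13F and 251 on NSC, against 3467 on MEF. It was 7.10-, 10.7- and 13.8-fold lower than MEF on those 3 arrays. A dimmer Ddit3 probe set read 136, 86.0, 57.3 and 281 on iNSC_14F, iNSC_13F, NSC and MEF. Its log2 differences from MEF were smaller, at -1.05, -1.43 and -1.43, with iNSC_13F and NSC below the floor. Trib3, a pseudokinase that CHOP and Atf4 induce, read 128, 144 and 147 on iNSC_14F, iNSC_13F and NSC, against 1410 on MEF. The 3 low values lay just over the floor and the gap to MEF was 11.0-, 9.79- and 9.59-fold. Chac1, an enzyme that breaks down glutathione, read 244 on iNSC_14F, 204 on iNSC_13F and 324 on NSC, against 1979 on MEF, and was 8.10-, 9.72- and 6.10-fold lower than MEF on them.

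Asns, which makes asparagine and is a textbook gene of the amino acid response, had 4609 on iNSC_14F, 5546 on iNSC_13F and 3766 on NSC, against 14530 on MEF. That is 3.15-, 2.62- and 3.86-fold below MEF, and both probe sets gave like values. Ppp1r15a, the stress-induced subunit of the phosphatase that reverses eIF2 alpha phosphorylation, read 395 on iNSC_14F, 536 on iNSC_13F and 297 on NSC, against 1181 on MEF. Its differences from MEF were -1.58, -1.14 and -1.99. Slc7a11, the cystine transporter, had 20.6, 88.5 and 93.7 on iNSC_14F, iNSC_13F and NSC, below the floor, and 213 on MEF, which makes MEF at least 2.05-fold higher than each. That bound depends on where the floor is set. Together with Edem1 and Herpud1 these 6 are the 8 genes of 32 (25.0%) that were at least 2-fold lower than MEF on all of iNSC_14F, iNSC_13F and NSC, which was so for 8.68% of all genes. That count was chosen after the values were seen. It was 6 to 10 under 8 alternative settings, with 6 (7.34% of all genes) under the hybridization scaling, where Edem1 and Slc7a11 on NSC were less than 2-fold below MEF, and 6 with quantile normalization, without Ppp1r15a and Slc7a11.

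The other 4 Atf4 targets did not share the pattern. Psat1 and Phgdh encode enzymes of serine synthesis. Psat1 read 9951, 13472, 10267 and 10951 on iNSC_14F, iNSC_13F, NSC and MEF, within 1.35-fold on any pair. Phgdh read 25551 and 24292 on iNSC_14F and iNSC_13F, 11698 on NSC and 17351 on MEF. Both induced arrays read highest, but the differences over NSC of 1.13 and 1.05 became 0.23 and -0.02 with the hybridization controls. A further 2 probe sets annotated to Phgdh and other genes were not used. Sesn2, a leucine sensor that restrains mTORC1, read 1080, 635, 744 and 718 on iNSC_14F, iNSC_13F, NSC and MEF, with iNSC_14F highest by less than 2-fold. Its second probe set read 639, 434, 282 and 636 on the arrays in that order. In it iNSC_14F and MEF were alike, and NSC over MEF was -1.17. Vldlr, a lipoprotein receptor, read 1101 on iNSC_14F and 547 on iNSC_13F, against 1923 on NSC and 1846 on MEF. It was 3.52-fold lower than NSC and 3.38-fold lower than MEF on iNSC_13F, and less than 2-fold lower on iNSC_14F. The median of its 6 probe sets brought iNSC_13F over MEF to -0.02. Some dimmer Vldlr probe sets were highest on NSC, with 351, 409 and 223 there against 77.7, 19.8 and 106 on MEF. In those both induced arrays lay below the floor.

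The motif of Atf4 targets, the CARE (TGATGNAA), was in 3.97% of all promoters, in 5 of the 10 Atf4 targets and in 1 of 3 degradation genes, Herpud1. It was searched on both strands in the same windows as the ERSE, and the 2 searches share no letters in these genes. The windows of Asns and Chac1, low on the 3 arrays other than MEF, and of Vldlr, which was not, are shown with it in capitals.
Asns, chr6:7693210-7693252, minus strand: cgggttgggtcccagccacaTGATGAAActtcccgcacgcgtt
Chac1, chr2:119351029-119351076, plus strand: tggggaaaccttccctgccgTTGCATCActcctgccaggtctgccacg
Vldlr, chr19:27216800-27216847, plus strand: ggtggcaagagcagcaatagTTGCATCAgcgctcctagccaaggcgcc
Slc7a11 had 2 copies before its start, and in Trib3 the match lay after the start. No match was found in the windows of Ddit3, Psat1, Phgdh, Sesn2 and Ppp1r15a. Genes with a match thus include Chac1, at -3.02 for iNSC_14F over MEF, and Vldlr, at -0.75.

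The place of the induced cells between NSC and MEF was read on the 12 genes that were at least 2-fold lower on NSC than on MEF. On iNSC_14F, 10 of them (83.3%) were within 2-fold of NSC, and on iNSC_13F, 9 (75%), against 66.2% and 65.9% of the 2011 genes lower on NSC than on MEF. The exceptions on iNSC_14F were Xbp1 and Hyou1, and on iNSC_13F Atf4 as well. With quantile normalization they held but for Xbp1 on iNSC_14F, at 0.96 over NSC, and they did not hold under the hybridization scaling. With the hybridization controls, Xbp1 was 0.12 and 0.43 and Hyou1 0.67 and 0.25 over NSC on iNSC_14F and iNSC_13F. Atf4 was then 0.32 over NSC on iNSC_13F. Under that scaling 7 genes, not 12, were at least 2-fold lower on NSC than on MEF. Pdia6 was within 2-fold of both cell types on both induced arrays. Ddit3, Trib3, Chac1, Asns, Herpud1, Edem1, Ppp1r15a and Slc7a11, the last below the floor on NSC too, all stood within 2-fold of NSC on both induced arrays. For Trib3 and Chac1 this holds on the deposited scale, and with the hybridization controls their log2 differences from NSC were -1.10 to -1.75.

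On both induced arrays 4 of the 32 genes, Atf6, Hsp90b1, Dnajc3 and Canx, were at least 2-fold lower than both NSC and MEF. None was higher than both by that much, and the shares of 12320 genes were 6.99% lower and 1.93% higher. The 4 are 12.5% of the list, and the count was chosen after the values were seen. Hsp90b1, Dnajc3 and Canx met it under all 8 alternative settings, while Atf6 fell out with quantile normalization and with the median of its probe sets. With the hybridization controls Hspa5, Pdia3, Trib3 and Chac1 joined to make 8, and the share of all genes rose to 8.65% of 12519. The actin 3′ to 5′ ratio was higher on both induced arrays than on NSC and MEF, and its part in these 4 genes was not tested.

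The 2 induced arrays were close. Between iNSC_14F and iNSC_13F 0 of 31 measured genes were at least 2-fold lower and 1 was higher, against 2.97% and 6.03% of all genes, with a median of 0.08 against 0.07. That gene was Vldlr, at 1101 on iNSC_14F against 547 on iNSC_13F, a log2 difference of 1.01 that lay under 2-fold in 2 of 7 alternatives. Next in size were Atf4 at -0.78 and Sesn2 at 0.77. The second Atf4 probe set read 3217 on iNSC_14F and 9314 on iNSC_13F, a log2 difference of -1.53, so both probe sets above the floor were lower on iNSC_14F but by different amounts. Xbp1 was lower on iNSC_14F by 1.40-fold.

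The pathway genes outside the 32 were read from lists chosen with earlier results known, and 4 of these lists bear on the patterns above. Their counts may be set beside 19.0% of all genes lower than MEF on iNSC_14F, 20.9% on iNSC_13F and 17.5% on NSC, and 18.0%, 15.6% and 19.9% higher. Of 19 other ER folding proteins, 7 on iNSC_14F, 10 on iNSC_13F and 9 on NSC were at least 2-fold lower than MEF, and 1, 1 and 2 were higher on them. Hspa13, an Hsp70 relative of the ER, read 259 on iNSC_14F and 178 on iNSC_13F, against 2832 on NSC and 1361 on MEF, so that the induced cells stood below both, as for Hsp90b1. Of 19 other degradation genes, 2 on iNSC_14F, 2 on iNSC_13F and 5 on NSC were lower than MEF. Edem3, a relative of Edem1, had 374, 335, 2300 and 1215 on iNSC_14F, iNSC_13F, NSC and MEF, with NSC highest. Of 13 other Atf4 and integrated stress response targets, 7 on iNSC_14F, 7 on iNSC_13F and 8 on NSC were lower than MEF, among them Nupr1, a stress-induced chromatin protein, at 14.1 on iNSC_14F, 72.5 on iNSC_13F and 126 on NSC, against 10420 on MEF. Ddit4, an inhibitor of mTORC1 that many stresses induce, went the other way at 21289 on iNSC_14F, against 2502 on iNSC_13F, 3137 on NSC and 1975 on MEF. Of 19 cytoplasmic aminoacyl-tRNA synthetases, 8 on iNSC_14F, 5 on iNSC_13F and 8 on NSC were lower than MEF, and Eprs, at 472 on iNSC_14F and 359 on iNSC_13F, against 3057 on NSC and 3357 on MEF, set the induced cells apart from both references as Hsp90b1 did.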

How the data were processed

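Total RNA of 4 mouse cell samples was hybridised to Affymetrix Mouse Genome 430 2.0 arrays, per the labels' protocols. The deposited values are linear intensities, 1 signal per probe set, and the submitters' processing notes name MAS5 without a version. The deposited signals had a 2% trimmed mean of 500 on each array and were used without rescaling. MAS5 applies a single factor to an array, which leaves differences that depend on brightness in place.

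The cell type labels gave 4 groups of 1 array. A source label of embryonic stem cells, on all 4 samples, was not used. Names of probe sets came from the platform annotation, updated by gene ID to RefSeq (GRCm38.p6), and 932 probe sets with several genes were left out. Each gene was represented by its brightest probe set. The floor was the highest of the 4 arrays' 95th percentiles over 86 chemosensory receptor probe sets, and lower values were set to it before taking log2. A gene counted as measured in a pair where it was above the floor on at least 1 array. With 1 array per group no test was run, and genes were counted at 2-fold. The counting code was run on a copy of the NSC values in which chosen genes were shifted past 2-fold, and it recovered them. That checks the code only and says nothing on the counts in these data. Precision is limited by the number of arrays.

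The 32 genes and all other lists were chosen with earlier results of these data known. All 32 could be named, and of each other list up to 4 genes per pair with the largest differences. The other lists held 159 genes, of which 148 had a probe set. RefSeq promoters were matched for 29 of the 32 genes (31 promoters), all but Atf6, Hyou1 and Manf. Alternatives were quantile normalization, hybridization-control scaling, a floor at the 75th or at the 99th percentile, log2 of the signal plus 16 in place of a floor, the median over a gene's probe sets, leaving out _s_at and _x_at probe sets, and asking for both arrays above the floor. Python 3.11.15, numpy 2.4.6, pandas 2.3.3 and matplotlib 3.10.9 were used.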

Additional observations from a re-analysis of the deposited data

How the results depend on the processing

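Of 61 differences of single genes past 2-fold, 59 kept their direction under all alternatives run for them and 40 also stayed past 2-fold. Both reversals came with the hybridization controls, where Ern1 and Phgdh for iNSC_13F over NSC became -0.01 and -0.02, as did the median of the sensors and factors for that pair, at -0.01. Under that scaling the median of the 32 genes was 0.23 for NSC over MEF, with 7 lower and 2 higher. It was -0.55 for iNSC_14F over NSC, with 10 lower and 0 higher. For iNSC_13F over NSC it was -0.69, with 13 lower and 0 higher. At least 2-fold below both NSC and MEF on both induced arrays were 8 genes, against 8.65% of all genes. Counted from the median of all genes, NSC over MEF then had 11 lower and 0 higher, against 12 and 0 as deposited. With the median of probe sets the count of higher genes was 1 for NSC over MEF, 1 for iNSC_14F over NSC and 0 for iNSC_14F over iNSC_13F, where 1 was lower. Without _s_at and _x_at probe sets, 0 genes were higher for iNSC_14F over NSC. Quantile normalization and no floor each gave 0 higher for iNSC_14F over iNSC_13F. The cause of these shifts was not tested. The counts and medians over MEF on the induced arrays stayed within 1.5 times of their values under all 8 alternatives. No paired analysis was possible because each group holds 1 array. Signal over background limits Slc7a11 to a bound, which ran between -2.65 and -0.22 for iNSC_14F over MEF, -1.27 and -0.22 for iNSC_13F over MEF and -1.18 and -0.18 for NSC over MEF, with -0.22 at the 99th-percentile floor, and leaves Trib3 close to the floor on 3 arrays.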

Other observations

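Some chaperones outside the ER also stood below NSC and MEF on both induced arrays, and others did not. Of 10 cytosolic heat shock genes, 3 were at least 2-fold lower and 2 higher than NSC on iNSC_14F, and 4 lower and 2 higher on iNSC_13F. Over MEF 5 were lower and 0 higher on each. Of all genes, 19.3% and 20.8% were lower and 16.9% and 14.8% higher than NSC on iNSC_14F and iNSC_13F, and 19.0% and 20.9% lower than MEF. Of the 10, 2 (20.0%) were at least 2-fold lower than both NSC and MEF on both induced arrays, against 6.99% of all genes. Hsp90aa1, the stress-inducible cytosolic relative of Hsp90b1, had a signal of 1784 on iNSC_14F and 1315 on iNSC_13F, against 19960 on NSC and 16860 on MEF. Hspa4, an Hsp110 exchange factor, read 1625 on iNSC_14F and 1094 on iNSC_13F, against 8094 on NSC and 5713 on MEF. Hspa1b, a stress-inducible Hsp70, read 1094 on iNSC_14F and 1392 on iNSC_13F, against 202 on NSC and 2301 on MEF, higher than NSC. Of 9 mitochondrial chaperones and proteases, 3 were lower and 1 higher than NSC on iNSC_14F, 3 lower and 2 higher on iNSC_13F, and 3 lower and 2 higher than MEF on each. The 3 lower ones were below both NSC and MEF on both induced arrays. Lonp1, a matrix protease, had 2260 on iNSC_14F and 1494 on iNSC_13F, against 544 on NSC and 1813 on MEF. Hspa9 had 2709 on iNSC_14F and 2365 on iNSC_13F, against 7534 on NSC and 6636 on MEF. Clpx had 197 on iNSC_14F and 169 on iNSC_13F, against 1077 on NSC and 471 on MEF. Yme1l1 had 143 on iNSC_14F and was below the floor on iNSC_13F, against 1899 on NSC and 1088 on MEF. Of 16 genes of the translocon and signal peptide processing, Sec62, Sec63 and Spcs3 met the same criterion, and Sec62, which helps to thread proteins into the ER, read 519 on iNSC_14F and 514 on iNSC_13F, against 3758 on NSC and 2599 on MEF.

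Amino acid synthesis genes outside the 32 split against MEF, where 19.0%, 20.9% and 17.5% of all genes were lower and 18.0%, 15.6% and 19.9% higher on iNSC_14F, iNSC_13F and NSC. Of 13, 4 were lower and 5 higher on iNSC_14F, 2 and 3 on iNSC_13F, and 5 and 2 on NSC. Cth, which makes cysteine, had a signal of 213 on iNSC_14F, 158 on iNSC_13F and 303 on NSC, against 2387 on MEF, while Glul, which makes glutamine and marks astroglial cells, had 8017 on iNSC_14F, 9767 on iNSC_13F and 7764 on NSC, against 1094 on MEF. Of 10 amino acid transporters, 3 on iNSC_14F, 1 on iNSC_13F and 2 on NSC were lower than MEF and 0 higher. Of 7 measured Nrf2 targets, 2 on iNSC_14F, 1 on iNSC_13F and 1 on NSC were lower than MEF, and as many were higher.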
